A study of Mus musculus with 45 samples.

Results

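Hdc, the gene of histidine decarboxylase, was examined beside 7 genes by which mast cells are usually recognised, Cpa3, Cma1, Mcpt4, Tpsb2, Kit, Ms4a2 and Fcer1a, in the wall of the mouse uterus. The 8 genes were taken by symbol from a table of 24422 genes, and each had its own row. Hdc was selected on its measured difference between endometrium and myometrium in WT mice, and the other 7 were picked for their known function with earlier results of these data known. The question was whether Hdc followed the mast cell genes or the endometrial layer.

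The animals were sexually mature young females of the CD-1 strain, either Plag1KO (constitutive knockouts of the transcription factor gene Plag1, KO below) or wildtype (WT), with 7 mice of each genotype. All 14 mice, controls included, had been superovulated with 5 IU of pregnant mare serum and, 2 days later, 5 IU of human chorionic gonadotropin, and were killed on the next day. In such experiments females were mated with WT males, or left unmated when oocytes were collected. Which of these held for each mouse was not given in the sources used here. From each mouse there was an unseparated part of the horn (uterus), the scrapings of the mucosa (endometrium) and the remaining wall (myometrium), which gave 6 groups of 7 samples. Scraping is a mechanical separation, so that either layer can hold some of the other.

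Expression was measured by STRT RNA-seq, which counts the 5′ ends of polyadenylated transcripts. The 45 libraries held 264095 to 1232992 counts each, and levels below are CPM (counts scaled to a common total of gene counts) after the repeat libraries of a mouse were summed. A floor of 3 counts corresponded to 11.7 CPM in the shallowest sample and to less in the others, and floors and intervals of this kind cover counting error only. No library had more than 1 count of Plag1, and the sums were 2 over WT and 5 over KO libraries, so its level could not check the genotype labels.

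Histidine decarboxylase makes histamine from histidine in a single step. Mast cells and basophils store histamine in granules and release it when antigen crosslinks IgE on the high-affinity receptor, and several other cell types make histamine without storing it. In the rodent uterus, histidine decarboxylase has long been known from both mast cells and the epithelium, where it is responsive to progesterone. The mast cell genes divide by role. Cpa3 (carboxypeptidase A3), Cma1 (a chymase), Mcpt4 (another chymase) and Tpsb2 (a tryptase) encode granule proteases. Kit encodes the receptor for stem cell factor, and Ms4a2 and Fcer1a encode the beta and alpha chains of the IgE receptor.

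In the annotation of build NCBIM37 (mm9), all 8 were protein-coding genes that overlapped no other annotated gene. Hdc lies at chr2:126419403-126445035 and Cpa3 at chr3:20115516-20142080, both on the minus strand. Cma1 (chr14:56560290-56563498) and Mcpt4 (chr14:56678581-56681147) lie near each other on the minus strand. Tpsb2 (chr17:25503486-25505804) and Kit (chr5:75970941-76052747) are on the plus strand, and Ms4a2 (chr19:11690013-11698209) and Fcer1a (chr1:175151402-175157360) on the minus strand. Over the first 100 bases of the transcript, the end that STRT reads come from, Mcpt4 alone had near copies, in 4 other genes at 90% identity or more, the nearest being Mcpt1 at 95.9%. Reads of Mcpt4 could therefore have been split between genes, and its values are uncertain to that extent. Mcpt1 itself had 1 count in all.

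The promoters of Hdc and of 3 of the protease genes are shown because Hdc and the proteases had opposite layouts in the uterine wall. Each runs from 250 bases before to 50 bases after the RefSeq start (GRCm38.p6), and capitals mark TATAA or GATAA on either strand (TTATA and TTATC are the same letters read from the other strand). RefSeq starts were at hand for 7 of the 8 genes, and Tpsb2 was not among them.
Hdc, chr2:126618629-126618928, minus strand: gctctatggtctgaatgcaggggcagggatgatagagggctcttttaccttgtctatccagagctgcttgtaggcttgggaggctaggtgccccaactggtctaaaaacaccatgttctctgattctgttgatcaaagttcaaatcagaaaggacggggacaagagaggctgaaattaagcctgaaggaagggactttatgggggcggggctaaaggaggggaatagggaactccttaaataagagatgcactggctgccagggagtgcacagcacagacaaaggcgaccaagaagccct
Cpa3, chr3:20242132-20242431, minus strand: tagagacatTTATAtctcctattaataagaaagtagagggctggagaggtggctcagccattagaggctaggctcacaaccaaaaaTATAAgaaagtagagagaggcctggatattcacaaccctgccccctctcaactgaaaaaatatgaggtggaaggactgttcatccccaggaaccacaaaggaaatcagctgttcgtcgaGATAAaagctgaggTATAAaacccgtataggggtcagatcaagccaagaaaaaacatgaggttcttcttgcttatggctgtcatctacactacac
Cma1, chr14:55944626-55944925, minus strand: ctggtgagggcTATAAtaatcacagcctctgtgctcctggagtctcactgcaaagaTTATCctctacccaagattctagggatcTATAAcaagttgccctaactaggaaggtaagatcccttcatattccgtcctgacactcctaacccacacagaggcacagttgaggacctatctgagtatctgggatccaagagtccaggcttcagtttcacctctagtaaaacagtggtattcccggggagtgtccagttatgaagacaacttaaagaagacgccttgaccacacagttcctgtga
Mcpt4, chr14:56062261-56062560, minus strand: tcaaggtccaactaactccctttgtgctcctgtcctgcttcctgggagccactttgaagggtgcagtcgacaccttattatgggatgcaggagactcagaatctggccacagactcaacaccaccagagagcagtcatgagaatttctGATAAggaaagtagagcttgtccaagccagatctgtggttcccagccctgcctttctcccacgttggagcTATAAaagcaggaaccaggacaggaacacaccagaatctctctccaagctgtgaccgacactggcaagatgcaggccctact

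The Hdc window held neither motif, whereas each of the 3 protease windows held both. In Cpa3 the GATAA began 45 bases and the nearest TATAA 31 bases before the start, and in Mcpt4 the TATAA began 32 bases before it. Over the 7 windows, GATAA stood in 5 (those of Cpa3, Cma1, Mcpt4, Ms4a2 and Fcer1a) and TATAA in 4. For scale, GATAA stood in 25.4% and TATAA in 24.9% of all 32851 promoter windows of this length. TGTTCT, a short sequence that steroid receptors can bind, stood 137 bases before the start of Hdc, in none of the other 6 genes, and in 19% of all windows. CATGTG, a sequence bound by the mast cell factor MITF, was found in Fcer1a alone of the 7 and in 14.2% of all windows, and CACGTG in none of the 7 and in 7.15%. These are matches of letters, and a window without one says nothing about the factor.

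Hdc was highest in endometrium. In WT endometrium the lowest, median and highest of 7 mice were 18.8, 60.2 and 339 CPM, and in KO endometrium 27.1, 54.0 and 144 CPM. In WT myometrium they were 2.16, 14.0 and 21.9 CPM, and in KO myometrium 1.87, 11.5 and 14.8 CPM. The layers did not overlap in KO mice and overlapped in WT mice at 1 end, where the lowest WT endometrium, of mouse 3, was below the highest WT myometrium. Uterus lay between, with 5.77, 52.5 and 171 CPM in WT and 6.96, 16.5 and 46.3 CPM in KO.

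By mean level the order for Hdc was endometrium of WT mice (144 ± 137 CPM, SD, n = 7 here and below), WT uterus (73.5 ± 65.2), endometrium of KO mice (72.5 ± 48.2), KO uterus (25.2 ± 16.1), WT myometrium (12.6 ± 6.27) and KO myometrium (9.37 ± 5.10). Ranges overlapped between every pair of neighbours in that order. The spread in endometrium was wide, since 3 WT mice, 1, 12 and 8, stood at 339, 319 and 184 CPM while the other 4 were between 18.8 and 60.2 CPM.

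The protease genes had the opposite layout. In uterus Cma1 was at 48.3, 61.3 and 127 CPM (lowest, median, highest) in WT and at 33.6, 61.7 and 118 in KO mice, and in myometrium at 24.2, 60.1 and 138 in WT and at 28.2, 55.9 and 83.9 in KO mice. In endometrium it was at 0, 5.91 and 34.9 CPM in WT and at 0, 0.985 and 79.0 in KO. Only 3 WT and 1 KO endometrium samples were above the floor of 3 counts, against all samples of uterus and myometrium.

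Mcpt4 and Tpsb2 ran the same course at similar counts. Mcpt4 ranged from 28.3 to 92.4 CPM (WT) and 36.7 to 93.0 (KO) in uterus and from 31.1 to 62.0 (WT) and 17.2 to 85.9 (KO) in myometrium, and its median in endometrium was 0 in both genotypes, with highest values of 60.3 (WT) and 53.1 (KO). Tpsb2 ranged from 53.2 to 127 CPM (WT) and 45.3 to 122 (KO) in uterus and from 18.6 to 68.6 (WT) and 21.0 to 93.6 (KO) in myometrium, and its medians in endometrium were 4.87 (WT) and 1.59 (KO) with highest values of 38.9 and 53.5. For Cma1, Mcpt4 and Tpsb2 alike, the highest endometrium sample was that of mouse 3 in WT and of mouse 13 in KO.

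Cpa3 was counted less. Its medians in uterus were 10.1 CPM for WT and 10.3 for KO, those in myometrium 11.1 for WT and 13.2 for KO, and those in endometrium 0 for both. In endometrium, 4 of 7 WT and 4 of 7 KO mice had no Cpa3 count, and in myometrium KO mouse 13 had none while the other KO mice reached 35.5 CPM.

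The receptor genes were counted less still. Kit was low in all tissues, with WT and KO medians of 5.36 and 6.36 CPM in endometrium, 3.09 and 2.06 in uterus, and 2.21 and 2.14 in myometrium, so that the proteases' low tissue was its highest. Ms4a2 had 12 counts and Fcer1a 30 counts over all samples, and outside KO mouse 13 no endometrium sample had a count of either. Within mice, Fcer1a was lower in endometrium than in myometrium in 4 WT and 3 KO mice and higher in KO mouse 13 alone, and Ms4a2 was lower in 1 WT and 4 KO mice and higher in none, the remaining mice having no difference. A median of 0 in a group of shallow samples means no more than a level below the floor.

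**Figure D1:**
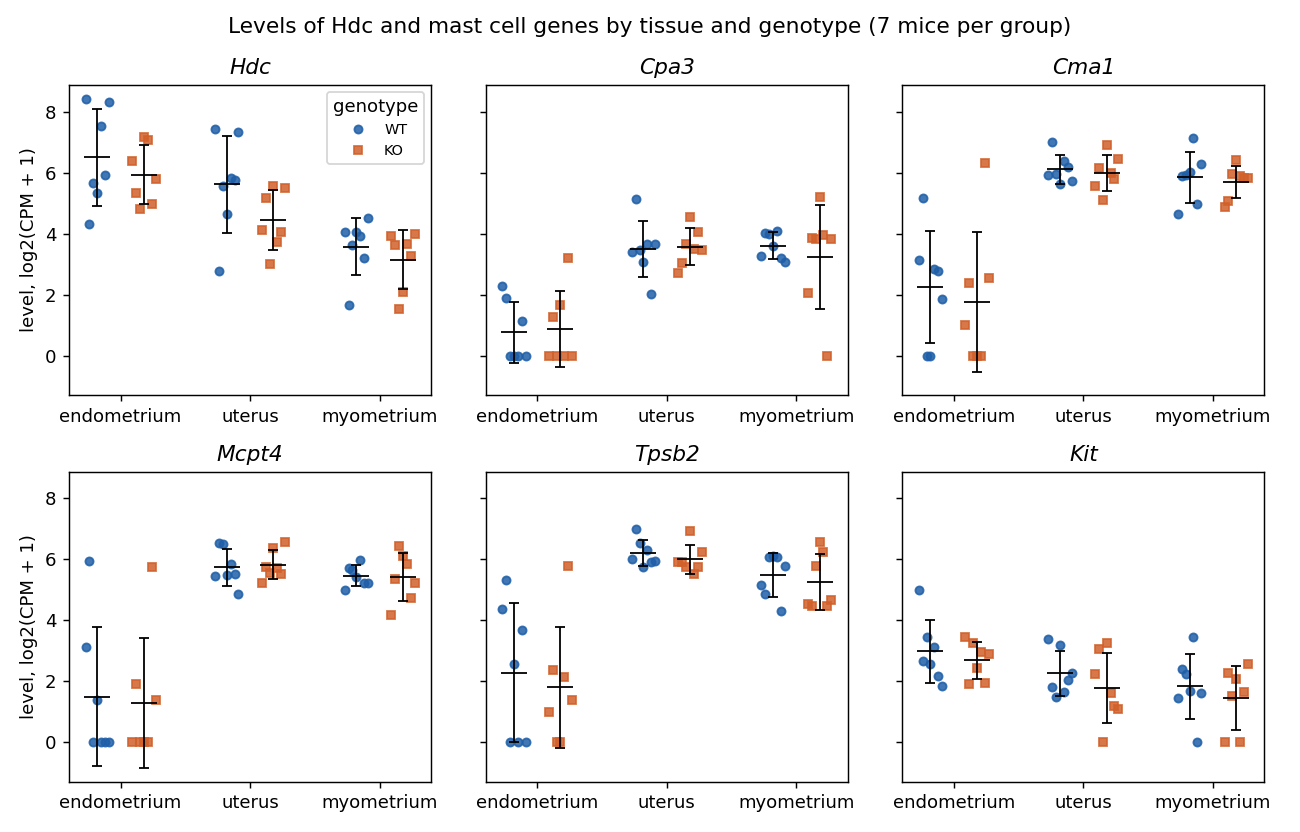
Level of 6 genes, as log2(CPM + 1), in endometrium, uterus and myometrium of WT (circles) and KO mice (squares); each point is a mouse and the bars are the mean ± SD of 7 mice. Hdc falls from endometrium to myometrium (medians of 60.2 and 14.0 CPM in WT), while Cpa3, Cma1, Mcpt4 and Tpsb2 each have their lowest medians in endometrium, in WT and in KO mice.

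The proportions of the 4 protease genes among themselves were compared by their shares of the summed counts, and some shares differed between groups or samples beyond counting error. Group shares pool the counts of 7 mice, so their intervals leave out the spread between mice. Cma1 took 32.8% (Wilson 95% interval 30.5 to 35.1%) and 32.7% (30.0 to 35.5%) in uterus of WT and KO mice, and 38.6% (35.1 to 42.3%) and 34.0% (30.2 to 38.0%) in their myometrium. Cpa3 took 5.81% (4.77 to 7.06%), 5.57% (4.37 to 7.07%), 6.70% (5.07 to 8.79%) and 7.88% (5.94 to 10.4%) in the same order. Tpsb2 took 34.9% (32.7 to 37.3%) in WT uterus and 28.5% (25.3 to 31.9%) in WT myometrium, intervals that do not overlap. Mcpt4 took 26.5% (24.4 to 28.7%) in WT uterus and 44.1% (34.9 to 53.8%) in the endometrium of WT mouse 3, again without overlap. In the endometrium of KO mouse 13, the endometrium sample with the most protease counts, the shares were 40.8% (36.4 to 45.3%) for Cma1 and 4.25% (2.77 to 6.47%) for Cpa3. In bulk tissue, fewer mast cells and less RNA of these genes per cell cannot be told apart.

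Summed over the 7 mast cell genes, levels in uterus were 157 to 384 CPM (WT) and 146 to 355 CPM (KO), and levels in myometrium 95.5 to 296 CPM (WT) and 70.5 to 284 CPM (KO). In endometrium the median sum was 13.9 CPM in WT and 11.8 in KO. In 12 of the 14 mice Hdc alone exceeded this sum in endometrium, among them WT mouse 12 with 319 CPM of Hdc beside a sum of 5.15 CPM and KO mouse 9 with 144 beside 6.53. In WT mouse 3 (18.8 against 142 CPM) and KO mouse 13 (30.4 against 200 CPM) the order was the other way round.

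The layer difference was tested in KO mice, which had no part in the choice of Hdc. Within each mouse, Hdc was higher in endometrium than in myometrium in 7 of 7 KO mice, by 2.78 ± 1.25 on the log2(CPM + 1) scale. In edgeR's quasi-likelihood test the log2 fold change of endometrium over myometrium was 2.75 ± 0.40 (SE; 95% interval 1.94 to 3.57), with a Benjamini-Hochberg adjusted p of 2.7e-05. In that comparison 10.6% of 12969 tested genes were called higher in endometrium, 8.71% lower and 19.3% in either direction.

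The protease genes went the other way in 6 of 7 KO mice, the exception being mouse 13 for all 4. Their log2 fold changes from edgeR were -2.27 ± 0.72 for Cpa3 (adjusted p = 0.0268), -2.02 ± 0.69 for Mcpt4 (adjusted p = 0.0409), -1.85 ± 0.66 for Tpsb2 (adjusted p = 0.0503) and -1.68 ± 0.68 for Cma1 (adjusted p = 0.0838). Cpa3 and Mcpt4 were thus called lower and the other 2 missed the threshold. These 2 calls came from a fit that did not pair the layers by mouse, and they were not stable. Mcpt4 was not called with DESeq2 (-2.57, adjusted p = 0.118) or without any of the 6 mice other than 13, and Cpa3 was not called without mouse 4, 6, 9, 11 or 14 (edgeR adjusted p up to 0.135 and 0.0914). When the mouse was entered as a replicate block, which compares the layers within each animal, all 4 were called lower. The edgeR changes were then -3.18 for Cma1 (adjusted p = 2.29e-08) and -2.97 for Tpsb2 (adjusted p = 7.53e-07). They were -3.45 for Mcpt4 (adjusted p = 5.33e-08) and -2.625 for Cpa3 (adjusted p = 0.00155). Kit differed by 1.35 ± 0.62 (adjusted p = 0.135), and Ms4a2 and Fcer1a did not pass the filter on low counts (1 CPM in at least 5 samples). Of the 6 genes tested, 1 was called higher and 2 lower, against 10.6% and 8.71% of all genes tested.

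KO mouse 13 moved these values. Its endometrium held 192 of the 199 Cma1 counts of all KO endometrium (96.5%), 129 of 132 of Mcpt4 (97.7%), 130 of 137 of Tpsb2 (94.9%) and 20 of 22 of Cpa3 (90.9%), against 37.1% of all gene counts, and 7 of 35 of Kit (20%). The same mark was seen in each of the 3 libraries made from it, where Cma1 was at 65.8, 53.8 and 110 CPM. Without this mouse the log2 fold changes were -4.88 for Cma1 (adjusted p = 3.01e-07), -5.84 for Mcpt4 (adjusted p = 1.15e-07), -4.75 for Tpsb2 (adjusted p = 1.08e-06), -4.50 for Cpa3 (adjusted p = 1.01e-04) and 2.80 for Hdc (adjusted p = 1.79e-05), so that all 4 protease genes were called lower. With the libraries scaled to the spike-ins, Cpa3 (-1.60, adjusted p = 0.088) and Mcpt4 (-1.32, adjusted p = 0.152) missed the threshold and Kit passed it (1.84, adjusted p = 0.0367).

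Hdc was set against the mast cell genes directly, with Cpa3 as the partner chosen for the test. In KO mice the layer difference of Hdc exceeded that of Cpa3 by 5.14 ± 3.32 (log2(CPM + 1), n = 7), positive in 6 of 7 mice (two-sided exact sign-flip permutation test, p = 0.0312, the smallest p possible being 0.0156). KO mouse 13, whose myometrium had no Cpa3 count, was the exception at -1.49. As values without a test, the excess of Hdc was 6.73 over Cma1, 6.90 over Mcpt4 and 6.22 over Tpsb2, each positive in 7 of 7 mice, and 1.53 over Kit, positive in 6 of 7.

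WT mice, in which Hdc was chosen, are described without a test. Hdc was higher in endometrium in 7 of 7 WT mice, by 2.93 ± 1.07 (log2(CPM + 1), range 1.28 to 4.36). Cpa3 (-2.84 ± 1.16) and Cma1 (-3.59 ± 2.13) were lower in 7 of 7, and Mcpt4 (-3.96 ± 2.31) and Tpsb2 (-3.20 ± 2.86) in 6 of 7, with mouse 3 at 0.22 and 0.46. Kit was higher in 6 of 7, by 1.14 ± 1.34.

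**Figure D2:**
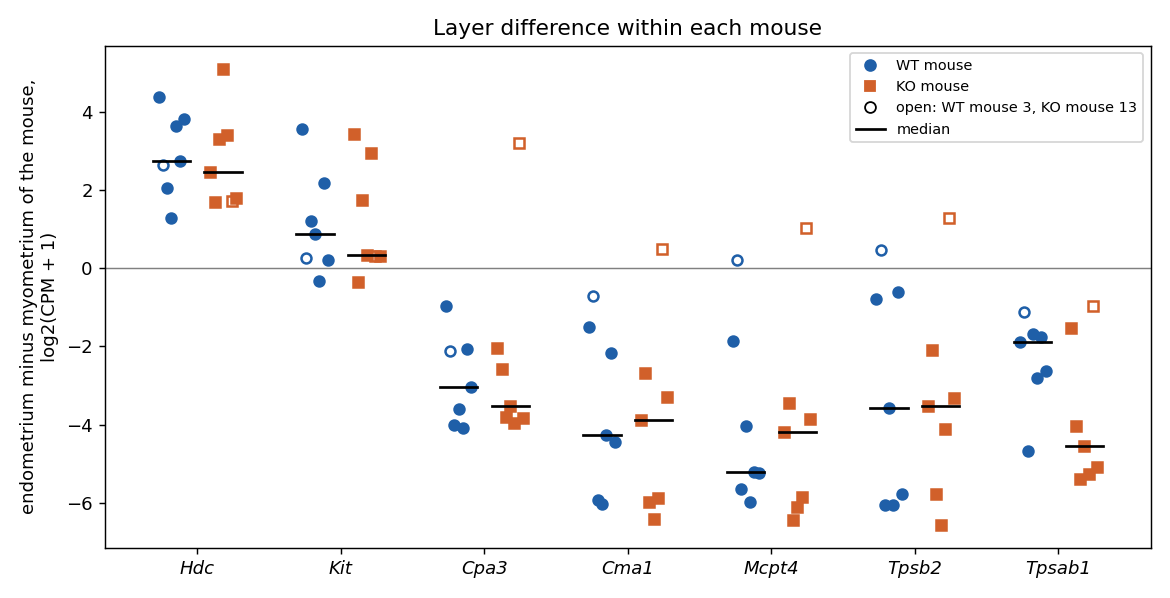
Endometrium minus myometrium of each mouse, in log2(CPM + 1), for 7 genes in WT (circles) and KO mice (squares), with the median as a bar. Hdc is above 0 in all 14 mice; Cpa3, Cma1, Mcpt4 and Tpsb2 are below 0 apart from KO mouse 13 and, for Mcpt4 and Tpsb2, WT mouse 3 (both mice drawn open).

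The endometrium samples that broke the pattern were also the lowest in a layer score. For this score, log2(CPM + 1) was averaged over Krt8, Krt18, Epcam and Cdh1, which mark epithelium, and the average over Acta2, Des, Myh11 and Cnn1, which mark smooth muscle, was subtracted. Its median in endometrium was 1.95 for KO (range -3.16 to 3.56) and 0.0073 for WT mice (range -3.86 to 1.88), and in myometrium -6.73 and -7.07. The lowest score of KO endometrium, -3.16, was that of mouse 13, and the lowest of WT endometrium, -3.86, that of mouse 3, both within the range of uterus (from -4.77 to -2.63).

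Across the 14 endometrium samples, centred by genotype, Cpa3 fell with the layer score (Pearson r = -0.785, permutation p = 0.00136, adjusted over 9 relations p = 0.0122; Spearman rho = -0.598, permutation p = 0.0259, adjusted p = 0.234). Without mice 3 and 13 r was -0.526, and without KO mouse 13 alone it was -0.625 (permutation, adjusted p = 0.194), so that the call rested on these samples. Within plate rows A to C, where mice 1 to 8 were, r was -0.887, and it was -0.678 among the mice of rows D to F. Cma1, which had more counts and was added after the data were seen, fell more closely with the score (r = -0.922, permutation p = 2e-05, adjusted over 24 relations p = 0.00048; rho = -0.904, permutation p = 7e-05, adjusted p = 0.00168). Its r was -0.767 without mice 3 and 13, and -0.955 and -0.899 within the sets of plate rows.

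For Hdc no relation with the score was called in endometrium (r = 0.124, permutation p = 0.672, adjusted p = 0.686, and rho = -0.174, permutation p = 0.554, adjusted p = 0.893). Without mice 3 and 13 its r was -0.663, of the same sign as that of Cma1 (-0.767) and Cpa3 (-0.526). This r was not tested, and the missing call does not show that Hdc lacked a relation with the score. Within plate rows A to C the r of Hdc was 0.0219, and within rows D to F 0.507. No relation of Hdc with Cpa3 was called either (r = -0.118, permutation p = 0.686, adjusted p = 0.686, and rho = -0.045, permutation p = 0.881, adjusted p = 0.893). That r was -0.311 without mice 1 and 13, and 0.134 and -0.570 within the sets of rows. In uterus and myometrium, none of the 6 relations among Hdc, Cpa3 and the score passed (permutation, adjusted p = 0.22 to 0.686 for r and 0.455 to 0.893 for rho). The highest was Hdc with the score in myometrium, at r = 0.537, 0.635 without mice 6 and 5, and 0.608 and 0.585 within the sets of rows.

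**Figure D3:**
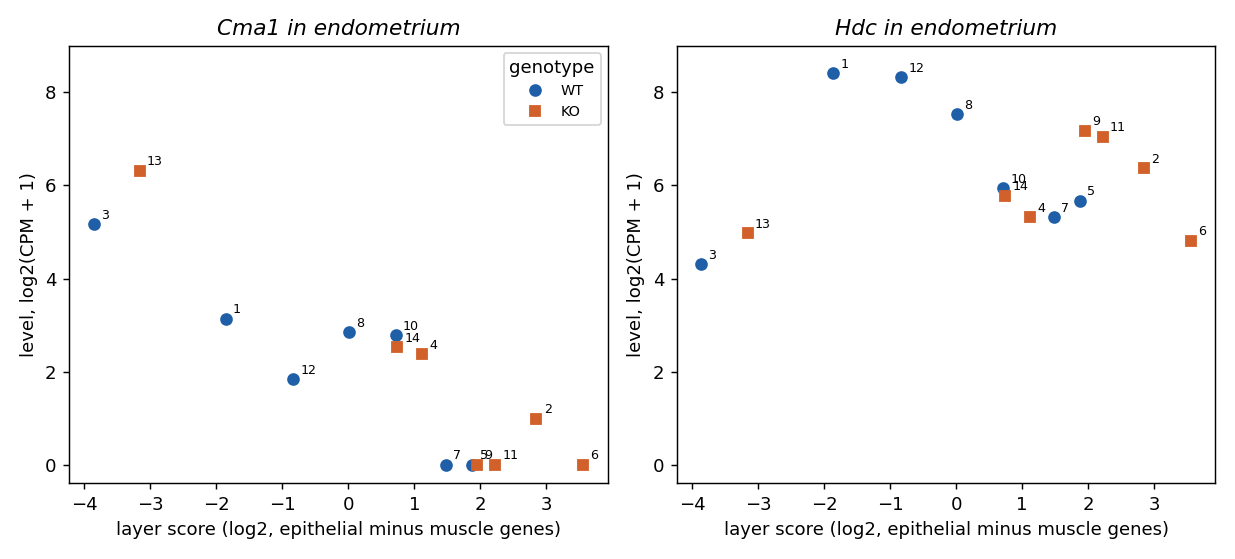
Level of Cma1 (left) and Hdc (right) in the 14 endometrium samples, in log2(CPM + 1), against the layer score, with points numbered by mouse (WT circles, KO squares). Cma1 falls with the score (r = -0.922 after centring by genotype), whereas Hdc shows no single trend and the samples of mice 3 and 13 are among its lowest. Without these 2 mice r was -0.767 for Cma1 and -0.663 for Hdc.

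Between uterus and endometrium, Hdc tended to keep its rank within a mouse, with a higher r in WT than in KO mice. Uterus and endometrium of the same animal were correlated in Hdc after centring by genotype, a relation added after the values were seen (n = 14, r = 0.765, permutation p = 0.00117, adjusted over 24 relations p = 0.0109; rho = 0.798, permutation p = 0.00091, adjusted p = 0.00728). Without mice 1 and 3 r was 0.578, within the upper plate rows (A to C) 0.842 and the lower (D to F) 0.498, and within genotypes 0.925 in WT and 0.332 in KO. Myometrium with endometrium (r = 0.511, permutation p = 0.0642, adjusted p = 0.171; rho = 0.525, permutation p = 0.0559, adjusted p = 0.168) and uterus with myometrium (r = 0.611, permutation p = 0.0221, adjusted p = 0.0884; rho = 0.459, permutation p = 0.101, adjusted p = 0.243) did not pass. Their r was 0.0979 and 0.347 without the 2 outermost mice, 0.656 and 0.778 in rows A to C, and 0.126 and 0.106 in rows D to F. Within genotypes it was 0.759 and 0.833 in WT and 0.156 and 0.31 in KO mice.

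Other mast cell genes were counted from a list of 23 in the table, of which 13 could be tested in KO mice. Of these, 2 were higher in endometrium, 2 lower and 9 did not pass. Over all genes tested in KO mice, 10.6% were called higher and 8.71% lower, and no excess of the list over these shares was tested. The median log2 change was 0.14 against 0.08 over all genes. Tpsab1, a second tryptase, was lower (-2.82 ± 0.64, edgeR adjusted p = 0.00293), in 7 of 7 KO mice. Its medians were 0 CPM in KO endometrium, 14.6 in KO uterus and 27.8 in KO myometrium. Mitf, a transcription factor of mast cells, melanocytes and other cells, was lower too (-1.31 ± 0.37, adjusted p = 0.0132).

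The genes of the list that were higher do not encode granule proteases. Enpp3, an ectonucleotide pyrophosphatase also made by epithelia, was higher by 2.99 ± 0.49 (edgeR adjusted p = 1.10e-04), and Hpgds, a prostaglandin D synthase, by 1.69 ± 0.37 (adjusted p = 0.0020). Gata2 (-0.03 ± 0.34, adjusted p = 0.97) and Srgn (0.14 ± 0.29, adjusted p = 0.791), the core protein of granule proteoglycans, did not pass. Mrgprb2, a receptor of connective tissue mast cells, had no count in any sample, and Tph1 had 3 in all. In WT mice 10 of the list were tested, with Hpgds and Enpp3 called higher and Tpsab1 lower (-2.71 ± 0.69, adjusted p = 0.00846), where 13.2% of 13227 genes were called, 6.81% higher and 6.39% lower.

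Cells other than mast cells that make histamine were looked for by their markers. None of the 4 basophil genes Mcpt8, Cd200r3, Prss34 and Il4 passed the filter in any comparison, and Mcpt8 had 10 counts in all samples. Of 8 neutrophil and monocyte genes, 3 could be tested in KO mice and none was called, and S100a8 and S100a9 had medians of 0 CPM in endometrium of both genotypes. Of 6 macrophage genes, Cd68 (1.68 ± 0.44, edgeR adjusted p = 0.00794), C1qb (1.07 ± 0.27, adjusted p = 0.00719) and C1qa (0.81 ± 0.29, adjusted p = 0.0469) were higher in KO endometrium and Mrc1 lower (-1.50 ± 0.45, adjusted p = 0.0214). In WT mice none of the 6 was called higher, and Csf1r (-0.98 ± 0.32, adjusted p = 0.0425) and Mrc1 (-1.27 ± 0.40, adjusted p = 0.0332) were lower. Of 5 lymphocyte genes tested, Nkg7, a cytotoxic granule gene, was higher (2.26 ± 0.46, adjusted p = 0.00115). All 4 epithelial genes were higher and all 4 smooth muscle genes lower, as in Krt8 (2.89 ± 0.34, adjusted p = 3.83e-06) and Acta2 (-3.84 ± 0.80, adjusted p = 0.00125). Of all genes tested in KO mice, 10.6% were called higher and 8.71% lower, and in WT mice 6.81% and 6.39%. The part of these cells in the Hdc difference was not tested.

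Kit is also the marker of interstitial cells, the pacemaker-like cells of muscle walls. Of 5 other genes of such cells, all tested in KO mice, 1 was called, where 19.3% of all genes were. This was Etv1, lower in endometrium (-2.79 ± 0.62, edgeR adjusted p = 0.00235), while the Kit difference, which did not pass, was positive. Ano1 was positive as well (0.64 ± 0.37), whereas Kcnn3 (-1.37 ± 0.52), Pdgfra (-0.53 ± 0.30) and Gja1 (-0.35 ± 0.33) were negative, and none of these passed. In WT mice none of the 5 was called.

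Histamine is broken down by Aoc1 (diamine oxidase) outside cells and by Hnmt (histamine N-methyltransferase) inside them. Of 12 genes of receptors, transporters and breakdown enzymes, 5 could be tested in KO mice, where 19.3% of all genes were called. Aoc1 alone of the 5 was called, higher in endometrium by 2.74 ± 0.59 (edgeR adjusted p = 0.00164) and higher in 7 of 7 KO and 7 of 7 WT mice. Its lowest, median and highest values were 6.53, 135 and 539 CPM in KO endometrium and 9.01, 55.2 and 927 CPM in WT endometrium. In myometrium they were 0, 21.4 and 70.9 CPM in KO and 0, 2.00 and 133 CPM in WT. The RNA of Hdc and that of Aoc1 were thus both higher in endometrium, while that of Hnmt, the other breakdown enzyme named here, was not called.

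Hnmt stayed between 0 and 11.1 CPM over all samples and did not pass (-0.12 ± 0.62, edgeR adjusted p = 0.923). The amine oxidases Maoa and Maob differed by -1.35 ± 0.48 (adjusted p = 0.0519) and -0.30 ± 0.43 (adjusted p = 0.686). Slc22a3, a transporter of histamine and other organic cations, differed by -1.40 ± 0.72 in KO mice (adjusted p = 0.186) and was called lower in WT endometrium (-3.96 ± 0.90, adjusted p = 0.00321). Of the receptors, Hrh1 had 7 counts in all and none in endometrium, and Hrh2, Hrh3 and Hrh4 had no count in any sample. Slc18a2, which loads histamine into granules, had 16 counts in all. Among 6 decarboxylase genes related to Hdc in name or function, such as Ddc and Odc1, 2 were tested in KO mice and none was called.

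Progesterone-responsive genes of the uterine epithelium were counted because Hdc is one of them. Of 8 in the table, 5 were tested in KO mice and 3 were higher in endometrium, which were Irg1 (4.36 ± 1.32, edgeR adjusted p = 0.0211), Cyp26a1, a retinoic acid hydroxylase (2.57 ± 0.74, adjusted p = 0.0156), and Lrp2, an endocytic receptor (3.97 ± 0.87, adjusted p = 0.00196). The Irg1 call rested on KO mouse 9, which held 31 of its 40 counts in KO endometrium, and without which the change was 2.02 (adjusted p = 0.212). Without mouse 14 it was 4.34 (adjusted p = 0.0508). Calca (-0.11 ± 0.71, edgeR adjusted p = 0.939) and Gata2 (-0.03 ± 0.34, adjusted p = 0.97), which is in the mast cell list too, were also tested in KO mice and did not pass. Of 7 tested in WT mice, Irg1, Cyp26a1 and Lrp2 were again the 3 called. Over all genes tested, 10.6% were called higher in KO and 6.81% in WT mice. The median change over the list in KO mice was 2.57, against 2.84 over the 4 epithelial genes.

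Irg1, which encodes the enzyme that makes itaconate, was set beside Hdc mouse by mouse after its values had been seen. WT mice 1, 8 and 12 and KO mouse 9 had the 4 highest Irg1 levels both in endometrium (113, 23.2, 43.8 and 67.5 CPM) and in uterus (70.5, 30.7, 54.1 and 13.7 CPM), with the other 10 mice at 0 to 11.4 CPM in endometrium and 0 to 2.74 in uterus. The same 4 mice had the 4 highest Hdc levels in endometrium, at 339, 184, 319 and 144 CPM, where the other 10 were at 18.8 to 132 CPM. In uterus their Hdc was at 171, 55.0, 160 and 46.3 CPM, against 5.77 to 52.5 CPM in the others, which overlap. Since the mice fell apart in this way no correlation of Irg1 with Hdc over all mice is given. Within the other 10 mice, r between Hdc and Irg1 was 0.27 in endometrium and 0.197 in uterus, as a description.

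Aoc1 ran differently. In uterus the same 4 mice had the 4 lowest Aoc1 levels, at 5.64 (WT mouse 1), 9.52 (WT mouse 8), 7.72 (WT mouse 12) and 3.43 CPM (KO mouse 9), and the other 10 lay between 13.2 and 303 CPM. In endometrium the 4 were at 39.0, 139, 9.01 and 6.53 CPM, which overlapped the 17.4 to 927 CPM of the others. WT mouse 5 had the most Aoc1 in endometrium, 927 CPM, and no Irg1 count there. The 4 mice were picked for their values, so nothing is tested between them and the rest.

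**Figure D4:**
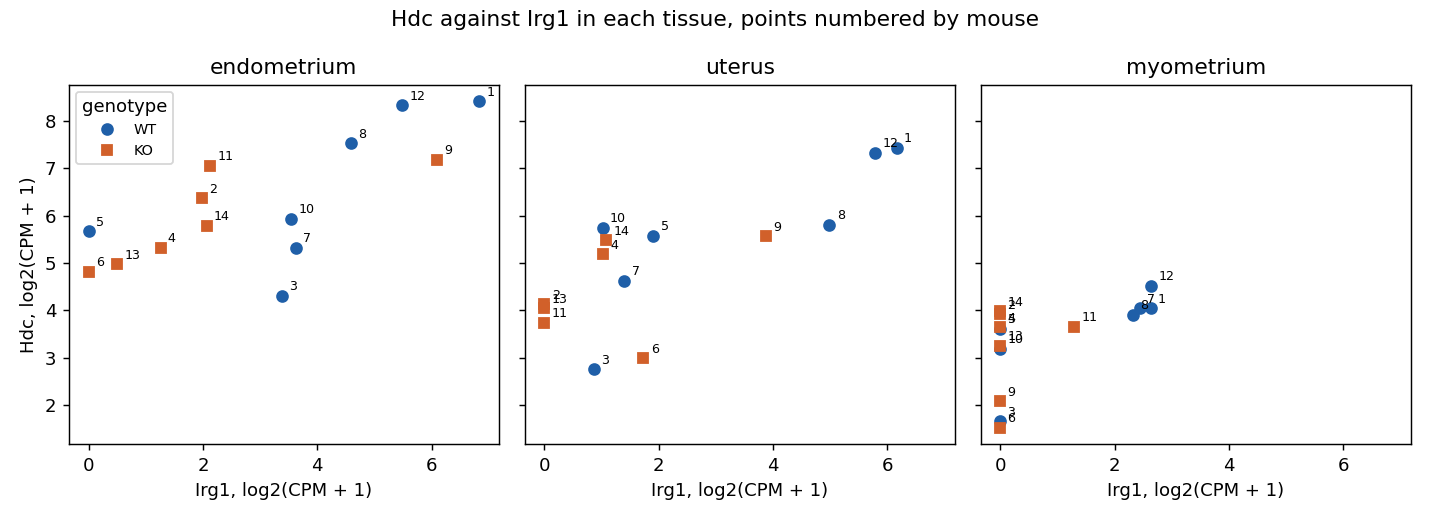
Hdc against Irg1, both in log2(CPM + 1), in endometrium, uterus and myometrium, with points numbered by mouse (WT circles, KO squares). WT mice 1, 8 and 12 and KO mouse 9 hold the highest Irg1 values in endometrium and uterus, and in endometrium also the highest Hdc values (144 to 339 CPM).

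The genes most like Hdc were not mast cell genes. Likeness was Pearson's r of log2 CPM over the 42 samples among 8180 genes with a mean log2 CPM of at least 3, and it is a description, since samples share mice, layers and depth. Hdc was chosen on its layer difference in WT mice, whose samples are among the 42, which partly fixed its r over them. The 5 highest were Ctsd, a lysosomal protease (0.871), Msx1, a homeobox factor (0.828), Slc1a1, a glutamate transporter (0.80), Calb1, a calcium-binding protein (0.793), and Slc25a48 (0.787). On deviations from the 6 group means, which take out tissue and genotype, Ctsd (0.783) and Calb1 (0.759) were again first, before Jam2 (0.668), Il17rb (0.663) and Plekhs1 (0.654).

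For Cpa3 the 5 most alike were Mcpt4 (0.867), Tpsb2 (0.861) and Cma1 (0.843), then Clec3b, the gene of tetranectin (0.823), and Cpz, a carboxypeptidase (0.82). Over the deviations they were Tpsb2 (0.641), Mcpt4 (0.62), Cpz (0.602), Tpsab1 (0.596) and Clec3b (0.579). Over all samples, Hdc and Cpa3 had r = -0.513, the 7819th of 8180 ranks for Hdc. To Hdc, the epithelial genes Cdh1, Krt8, Krt18 and Epcam stood at 0.688, 0.618, 0.598 and 0.552. To Cpa3, the smooth muscle genes Cnn1, Acta2, Des and Myh11 stood at 0.779, 0.771, 0.705 and 0.705. Kit was closer to Hdc (0.465) than to Cpa3 (-0.257). Over the deviations, the epithelial genes differed in sign to Hdc, at 0.41, 0.29, 0.0833 and -0.148 in the same order. The smooth muscle genes then stood at 0.446, 0.452, 0.252 and 0.289 to Cpa3.

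Between genotypes no gene passed the threshold in edgeR in any tissue (0% called). The counts at an unadjusted p under 0.05 were 731 of 12959 in uterus (5.64%), 676 of 13004 in endometrium (5.20%) and 548 of 12991 in myometrium (4.22%), and DESeq2 called 7, 1 and 0 genes. Hdc was lower in KO by -1.48 ± 0.52 on the log2 scale in uterus (95% interval -2.54 to -0.41, edgeR adjusted p = 0.659), by -0.91 ± 0.50 in endometrium (-1.95 to 0.12, adjusted p = 0.958) and by -0.36 ± 0.42 in myometrium (-1.22 to 0.50, adjusted p = 1.00). The ranges of the genotypes overlapped in every tissue, and none of these passed.

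In uterus and myometrium, where they were well counted, the protease genes had estimates smaller in size than Hdc, but no difference between genes was tested. In myometrium their estimates lay within the 95% interval of Hdc (-1.22 to 0.50). In uterus the KO minus WT values were -0.09 ± 0.46 for Cpa3, -0.09 ± 0.28 for Cma1 (95% interval -0.67 to 0.48), 0.07 ± 0.28 for Mcpt4 (-0.50 to 0.65) and -0.18 ± 0.25 for Tpsb2 (-0.70 to 0.35), and in myometrium 0.16 ± 0.48, -0.25 ± 0.31, 0.12 ± 0.30 and -0.09 ± 0.35. The interval for Cpa3 ran from -1.04 to 0.85 in uterus and from -0.81 to 1.13 in myometrium and so included changes in either direction. In endometrium the errors were larger, at 1.18 ± 0.96 for Cpa3 and 0.91 ± 0.92 for Cma1. The sign for Cpa3 depended on KO mouse 13, without which it was -0.70. Kit differed by -0.34 ± 0.60 in uterus, -0.27 ± 0.52 in endometrium and -0.50 ± 0.76 in myometrium, and none of the members passed.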

How the data were processed

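The authors deposited raw counts, 1 column per library, which per the methods were made by joining reads with the same molecular identifier, aligning them with TopHat to mouse build mm9 and counting over UCSC gene models with Homer. The submitters' notes name HTSeq and mm9. The handling of multiply placed reads was not given in the sources used here. Groups came from the labels, and 0 columns were left without a sample. Repeat libraries of a mouse (3 of KO mouse 13 endometrium, 2 of WT mouse 12 myometrium) were summed. Chi-square per degree of freedom was 3.30 to 5.06 and 2.26 for repeats against 6.81 to 16.6 and 3.80 to 10.1 for other pairs, so repeats differed by more than sampling noise. Layers of a mouse were paired by the mouse number, and their deviations from group means had a mean r of 0.128 in the same KO mouse and -0.021 between KO mice (0.086 and -0.015 in WT).

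Genes with 1 CPM in at least 5 samples entered edgeR 4.0.16 in R 4.3.3, with TMM factors, the quasi-likelihood test, Benjamini-Hochberg adjustment and a threshold of 0.05. The main layer fits did not pair the layers of a mouse, which only the fits with a replicate block did. Permutation tests were two-sided, exact for sign flips and with 100000 resamples for correlations, on log2(CPM + 1). Likeness used log2 CPM with a prior count of 2. DESeq2 1.42.0 was an alternative. Methods were tested on simulated data. The members and lists were chosen with earlier results of these data known. The 8 members were always named. From each list at most 4 genes past the threshold in KO mice were named, plus histamine pathway genes. Likeness named 5 genes. Gata2, Srgn, Mrgprb2, Tph1, Mcpt1, Mcpt8, S100a8 and S100a9, outside this rule, were chosen after their values were seen. Ano1, Kcnn3, Pdgfra, Gja1 and Calca, also outside it, were named to give all tested genes of their lists. Coordinates and first 100 bases came from NCBIM37 with GENCODE M1 models and BLAST 2.17.0.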

Additional observations from a re-analysis of the deposited data

Results flagged for a closer look

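In 8 of 52 groups of 7 samples a single sample stood far from the others by Dixon's test, which nominally flags about 5% of groups by chance. A group with counts in only 1 sample is always flagged, however low the count, as for Ms4a2 and Fcer1a below. Several flags also share 1 sample, so the number flagged cannot be read against that 5%. The endometrium of KO mouse 13 accounted for 6 of them. On the log2(CPM + 1) scale it had 6.32 for Cma1 (next sample 2.53), 5.76 for Mcpt4 (next 1.92), 5.77 for Tpsb2 (next 2.37), 2.1 for Fcer1a (8 counts, the rest at 0) and 0.497 for Ms4a2 (1 count, the rest at 0). Its layer score of -3.16 was below the next lowest, 0.74. The part of the muscle RNA in that sample's mast cell genes was not tested. The other 2 were Ms4a2 in uterus of WT mouse 5, at 0.937, and in myometrium of WT mouse 7, at 1.68, each from 1 count where the other samples of the group had none.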

How the results depend on the processing

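Hdc stayed called higher in KO endometrium under every alternative run. The excess of Hdc over Cpa3 in KO mice ranged from 4.56 to 6.24 with a mouse left out in turn (exact permutation p = 0.0625 without mouse 2, 4, 6, 9, 11 or 14, and 0.0312, the smallest that 6 mice allow, without mouse 13), and was 1.53 with Kit in place of Cpa3. In the correlations in endometrium, leaving out KO mouse 13 gave -0.0346 for Hdc with the layer score and 0.0358 for Hdc with Cpa3, both reversed in sign and neither called, and -0.625 for Cpa3 with the score. Without mouse 13 the genotype change of Cpa3 in endometrium was -0.70. With a replicate block by mouse, 2776 genes were called in KO mice against 2508 without (2384 shared), and 1850 against 1746 in WT mice (1611 shared), and in KO mice, where members were tested, it changed the calls of Cma1 and Tpsb2 and of no other member. In KO mice Cpa3 was not called without mouse 4, 6, 9, 11 or 14 (edgeR adjusted p up to 0.0914), nor Mcpt4 without any of the 6 mice other than 13 (up to 0.135) or with DESeq2 (0.118). Tpsb2 passed under relative log expression factors, no gene filter, 1 library per mouse, all groups in a single fit and plate rows as a covariate, and Cma1 under the last 2. Leaving out a mouse gave 1852 to 2266 calls in KO and 1158 (without mouse 10) to 1825 in WT mice. Genotype calls rose from 0 to 7 in uterus with DESeq2, to 1 (DESeq2) and 7 (all groups in a single fit) in endometrium, and to 1 (spike-in scaling), 3 (no gene filter) and 1 (without mouse 13) in myometrium. Spike-in scaling moved the median log2 change of all genes from 0.08 to 0.58 in KO and from 0.01 to 0.21 in WT mice, and the share of calls that were higher from 54.9 to 86.3% and from 51.6 to 67.2%. The cause of these changes was not tested. Irg1 in KO mice could not be tested without mouse 11, where it missed the filter. Depth limits Ms4a2 and Fcer1a most, since they had 12 and 30 counts over the 42 samples.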
